A study of Mus musculus with 6 samples.

Results

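Star, Cyp17a1 and Hsd3b1 are steroid synthesis genes that were measured in mouse ovaries during the first days after birth. Every clone on the array whose annotation named 1 of these genes was taken, whatever its values. That gave 4 of the 8272 cDNA clones in the files. Star had clone BG080331, Cyp17a1 had clone BG064307, and Hsd3b1 had clones BG080926 and BG081903. The ovaries came from C57Bl/6J mice with no treatment or engineered allele named in the labels. They were collected at day 4, at day 2 and less than a day after birth (day 0). In this strain follicles begin to assemble at about day 2, per the series text.

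The 6 arrays were 3 arrays of day 4 and 3 arrays of day 2, each read against day 0. The array is a spotted cDNA array read in both colours. The later day carried Cy5 and day 0 carried Cy3 on all 6 arrays, so a difference from day 0 and a dye effect of the clone cannot be told apart. The 6 arrays used 6 later RNAs and 5 day 0 RNAs, because array 3 of both ages shared its day 0 RNA. How many pups gave each RNA is not given in the sources used here. P-values therefore measure the spread between these RNAs and arrays. The ovaries were taken whole, so fewer cells of a type and less RNA per cell cannot be told apart.

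Steroid hormones are made from cholesterol. Star, the steroidogenic acute regulatory protein, brings cholesterol to the inner mitochondrial membrane, where the side chain is removed to give pregnenolone. Hsd3b1, a hydroxysteroid dehydrogenase, turns pregnenolone into progesterone, and Cyp17a1, a hydroxylase and lyase, turns such steroids into androgen precursors. In the adult ovary, theca cells around growing follicles hold Star, Hsd3b1 and Cyp17a1 and make androgens, which granulosa cells convert into oestrogens. Theca cells form only after follicles begin to grow.

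The promoter of Hsd3b1 is shown because this gene, with 2 clones, was the best covered of the 3 and the 1 that matched the promoter table used, which is from RefSeq (build GRCm38.p6). The window is chr3:98859745-98860044 on the minus strand, and it runs from 250 bases before the gene start to 50 bases from it. Capitals mark matches to motifs of a GATA factor, of the receptor SF-1 and of a TATA-like element, on either strand.
Hsd3b1: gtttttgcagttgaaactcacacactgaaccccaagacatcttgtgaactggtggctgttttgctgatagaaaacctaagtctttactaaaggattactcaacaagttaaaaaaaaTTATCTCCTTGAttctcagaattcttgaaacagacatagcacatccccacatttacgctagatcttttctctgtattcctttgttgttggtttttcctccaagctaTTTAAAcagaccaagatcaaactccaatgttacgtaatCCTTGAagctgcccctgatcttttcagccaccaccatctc

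Both strands were searched for 6 motifs. TCAAGG, the start of the site bound by the nuclear receptor SF-1 (Nr5a1), matched in reverse as CCTTGA at bases 123 and 261 of the window. AGATAA, a site of GATA factors, matched in reverse as TTATCT at base 117, next to the first of these without overlapping it. TTTAAA, which resembles a TATA box, lay at base 223, or 28 bases before the gene start. The match at base 261 lies 10 bases past the gene start. AGGTCA and TATAAA had no match in this window. Of the 32851 promoters in the table, 14.4% held TCAAGG, 11.2% AGATAA, 13.2% TTTAAA, 16.3% AGGTCA and 13.6% TATAAA. The shorter CAAGG lies inside TCAAGG and matched at the same 2 places. It occurs in 52.1% of promoters, and TCAAGG was added after it and the sequence had been seen. A match describes these letters and was not tested as a site.

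The deposited value for each clone and array is a log2 ratio of the later day over day 0, as the mean of up to 4 repeats. Before the values of the genes, a property of the arrays bears on all results at day 2. Day 2 arrays 1 and 2 opposed each other over the 8272 clones (r = −0.675), although their labels state the same conditions and dyes. The direction of the day 2 values is therefore not settled, and the fits and counts that use them are also given with the sign of array 1 or of array 2 turned. Values of single day 2 arrays are given as deposited, and turning an array turns their sign. The other day 2 pairs had r = 0.02 and r = 0.23, the day 4 pairs ran between 0.44 and 0.75, and the array 3 pair that shared a day 0 RNA had r = 0.77. As deposited, day 2 array 1 had r = 0.27, 0.18 and 0.02 with day 4 arrays 1, 2 and 3. Day 2 array 2 had r = 0.11, 0.24 and 0.22 with them, and turning an array turns the sign of its r. Day 4 array 3 had values for 5630 clones and day 4 array 1 for 7775, against 8272 on each of the other 4 arrays.

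Star stood high on 1 array of day 4 and near 0 elsewhere. Its log2 ratio to day 0 was −0.17, 0.29 and 1.45 on day 4 arrays 1, 2 and 3, against 0.22, −0.03 and 0.29 on day 2 arrays 1, 2 and 3. Day 4 array 3, at 2.73-fold over day 0, lay above all other arrays, and the ages overlapped. The 4 repeats on that array were 1.60, 1.26, 1.37 and 1.56, so the high value was shared by all 4 spots. It was above the ratio of 98.5% of clones with a value on that array. On the other 5 arrays the lowest repeat was −0.30 and the highest 0.61. Between the day 4 arrays the SD was 0.83, which is 3.46 times the highest SD between repeats at that age, 0.24. At day 2 the SD between arrays, 0.17, was smaller than the highest SD between repeats, 0.24.

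Hsd3b1 changed sides between arrays, and its 2 clones did so together. Clone BG080926 had log2 ratios of 0.79, 1.02 and −0.14 on day 4 arrays 1, 2 and 3, against −0.78, 1.11 and −0.63 on day 2 arrays 1, 2 and 3. Clone BG081903 had 0.80, 0.88 and −0.08 on day 4 arrays 1, 2 and 3, against −1.08, 1.91 and −1.02 on day 2 arrays 1, 2 and 3. Day 4 arrays 1 and 2 and day 2 array 2 were high for both clones, day 2 arrays 1 and 3 were low, and day 4 array 3 was near 0. As deposited, the highest value of each clone was on day 2 array 2, so the ages overlapped. With that array turned, its values of −1.11 and −1.91 were the lowest of each clone, and the ages did not overlap. The same was then so of 15.7% of all clones with a value on every array, against 6.87% as deposited.

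The 2 Hsd3b1 clones had the same sign on 6 of 6 arrays. They differed by 0.01 to 0.81 on the log2 scale, most on day 2 array 2, where BG081903 reached 3.76-fold over day 0 and BG080926 2.15-fold. Their correlation over the 6 arrays was 0.96 (0.95 with day 2 array 1 turned and 0.98 with array 2 turned), given as a description because both clones were read on the same arrays. At day 2 the SD between arrays was 1.05 for BG080926 and 1.71 for BG081903, or 5.67 and 5.75 times the highest SD between repeats. With day 2 array 1 turned these SDs were 0.92 and 1.51, and with array 2 turned 0.24 and 0.50. At day 4 it was 0.61 for BG080926 and 0.54 for BG081903, or 3.37 and 1.10 times the highest SD between repeats.

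On day 4 array 3, BG081903 had repeats of 0.51, −0.45, 0.13 and −0.52, so its mean near 0 came from spots of both signs. On day 4 array 1 the same clone had values for 2 of its 4 spots, and BG080926 for 3 of 4. There BG081903 was brighter than 99.6% of clones with a value, and BG080926 than 99.4%. That array lacks 497 clones altogether, and 98.0% of these were brighter than 90% of clones on day 4 array 2. Hsd3b1 belongs to a family of similar genes. The mouse gene table lists Hsd3b1 to Hsd3b6 on chromosome 3 and Hsd3b7 on chromosome 7, and whether RNA of the relatives bound these clones was not tested.

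Cyp17a1 was near 0 at day 4 and had opposite values on day 2 arrays 1 and 2. Its log2 ratio was 0.38 and −0.14 on day 4 arrays 1 and 2, with no value on day 4 array 3, against 1.27, −0.97 and −0.01 on day 2 arrays 1, 2 and 3. As deposited, array 1 was the highest and array 2 the lowest at day 2, and both day 4 values lay between them. With array 1 turned the day 2 values ran from −1.27 to −0.01, and with array 2 turned from −0.01 to 1.27. The repeats ranged from 0.93 to 1.87 on day 2 array 1 and from −1.71 to −0.57 on day 2 array 2, so the 2 arrays did not overlap spot by spot. Both pairs of repeats of Cyp17a1 on day 2 array 1 carry the authors' mark for repeats. Cyp17a1 and Hsd3b1 took opposite signs on day 2 arrays 1 and 2, the arrays that run against each other over all clones.

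**Figure D1:**
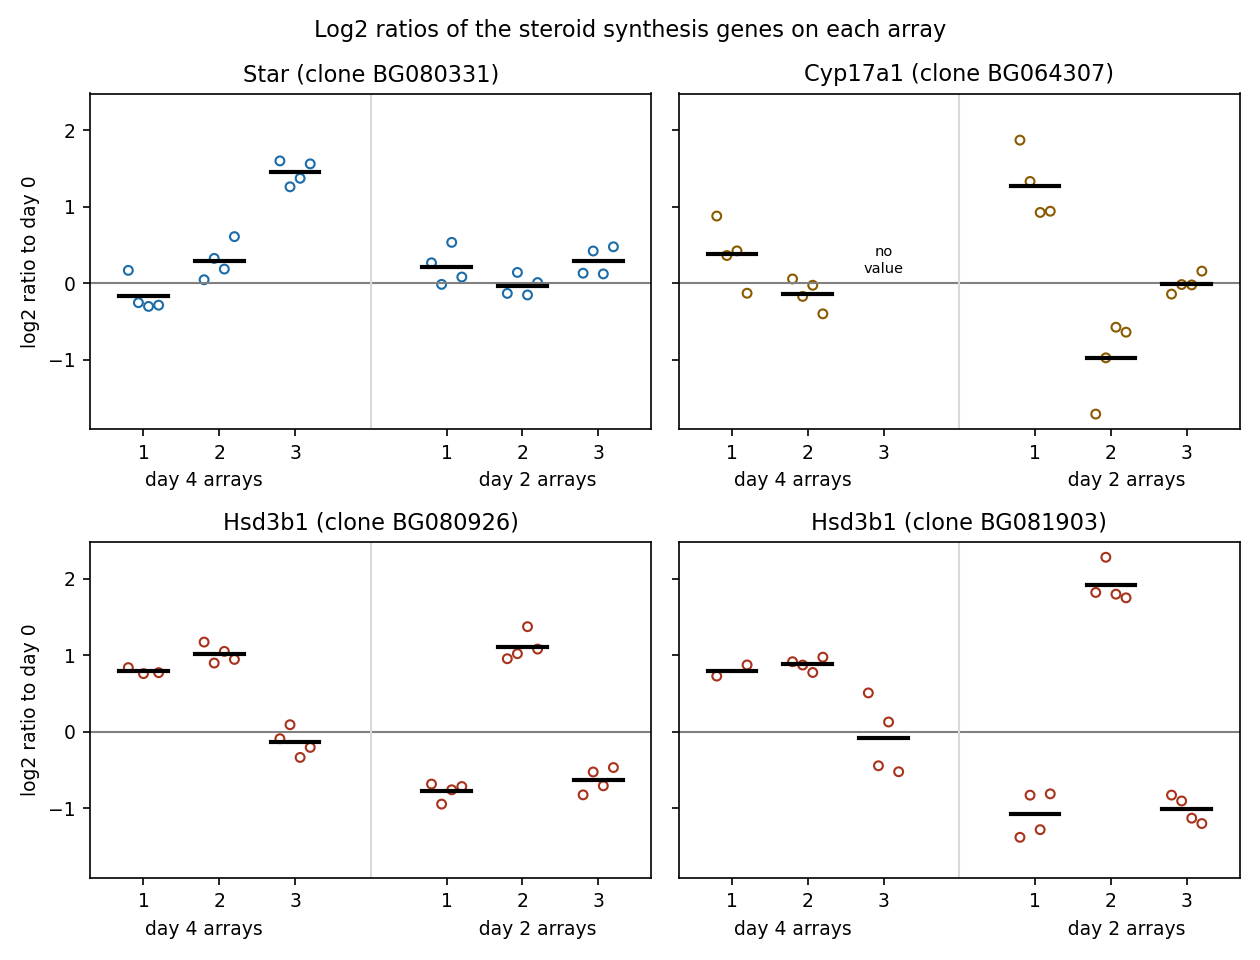
Log2 ratio to day 0 (vertical axis) on day 4 arrays 1 to 3 (left) and day 2 arrays 1 to 3 (right) for the 4 clones. Circles are the repeats on an array, black bars their mean, and the grey line is no difference from day 0. Star is high on day 4 array 3 only, at 1.45, and both Hsd3b1 clones are high on day 2 array 2 and low on day 2 arrays 1 and 3.

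At day 4 against day 0, the fitted means of all 4 clones were above 0, but no clone passed the test (limma, Benjamini-Hochberg over 8135 clones). Star averaged 0.52 ± 0.30 (SE, n = 3 arrays, log2), or 1.44-fold, with an adjusted p of 0.678. Hsd3b1 averaged 0.56 ± 0.41 for BG080926 (n = 3, adjusted p 0.755) and 0.53 ± 0.60 for BG081903 (n = 3, adjusted p 0.837). Cyp17a1 averaged 0.12 ± 0.53 (n = 2, adjusted p 0.957). The 95% intervals were −0.20 to 1.25 for Star, −0.45 to 1.57 for BG080926, −0.94 to 2.01 for BG081903 and −1.23 to 1.48 for Cyp17a1. A doubling (a log2 of 1) at day 4 thus lies inside each interval of this fit, which also takes in the spread of the day 2 arrays as deposited. With the day 4 arrays alone the SE was 0.31 for Star, 0.23 for BG080926, 0.21 for BG081903 and 0.18 for Cyp17a1. The SE of Cyp17a1 was 0.32 with day 2 array 1 turned and 0.33 with day 2 array 2 turned, against 0.53 as deposited. Whether a doubling lies inside the narrower intervals of Cyp17a1 was not computed.

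Over all clones tested, 0.479% passed at an adjusted p under 0.05 in this comparison (39 clones, all higher at day 4), against 0 of the 4 steroid synthesis clones. The count of 39 became 0 without any 1 of the day 4 arrays, 71 without day 2 array 1 and 16 without day 2 array 3. At an unadjusted p under 0.05 the shares were 9.29% of all clones and 0 of these 4. With the day 4 arrays alone they were 22% of all clones and 1 of these 4, BG081903 (adjusted p 0.220). Clone BG081903 was also under 0.05 without day 2 array 2 (adjusted p 0.340, with 14.5% of all clones), and Star without day 4 array 1 (adjusted p 0.752, with 6.02%). With day 2 array 1 turned 1050 of the 8135 clones were under 0.05, and with array 2 turned 897. No clone of the 3 genes was among them, and their smallest unadjusted limma p was 0.051, for BG080926 with array 2 turned. The median over all clones was −0.00 on the log2 scale, with 49.8% above 0. Of clones with values on all 3 day 4 arrays, 44.3% had the same sign on each, and 0 of the 3 such clones of Star and Hsd3b1 did. Without day 4 array 3 the mean of Star was 0.06, and those of Hsd3b1 were 0.90 and 0.84, so leaving it out lowered Star and raised Hsd3b1.

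At day 2 against day 0 the fitted means were close to 0 with wide errors. Star averaged 0.16 ± 0.30, Cyp17a1 0.10 ± 0.43, BG080926 −0.10 ± 0.41 and BG081903 −0.06 ± 0.60 (SE, n = 3 arrays each, log2). Their adjusted p-values in limma were 0.972, 0.983, 0.983 and 0.989. Among all clones 0% passed at an adjusted p under 0.05 and 2.84% at an unadjusted p under 0.05, with 0 of these 4 in both counts. The same sign on all 3 day 2 arrays was seen in 16.4% of all clones and in 0 of these 4.

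With the sign of a day 2 array turned, the day 2 values of Hsd3b1 and Cyp17a1 took other signs and sizes. With array 1 turned, the means were 0.01 for Star, −0.75 for Cyp17a1, 0.42 for BG080926 and 0.66 for BG081903. With array 2 turned, they were 0.18 for Star, 0.75 for Cyp17a1, −0.84 for BG080926 and −1.33 for BG081903. No clone of the 3 genes passed the limma test in either form, and the smallest adjusted p was 0.189, for Cyp17a1 with array 1 turned. The same sign on all 3 day 2 arrays was then seen in 1 of these 4 clones (Cyp17a1) and 44.1% of all clones with array 1 turned. With array 2 turned it was seen in 3 of these 4 (Star and both Hsd3b1 clones) and 30.8% of all clones. At an unadjusted p under 0.05 there was 1 of these 4 with array 1 turned (Cyp17a1), against 23.2% of all clones. With array 2 turned there were 3 of these 4, against 13.8% of all clones: Cyp17a1 (adjusted p 0.360), BG080926 (0.311) and BG081903 (0.265). Without day 2 array 2, BG081903 averaged −1.05 and was also under 0.05 (adjusted p 0.453, with 6.45% of all clones). Which form is right was not tested.

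The ages were set against each other through their ratios to day 0, and a dye effect shared by the arrays drops out of that difference. Hsd3b1 had a mean difference of 0.66 ± 0.58 for BG080926 and 0.59 ± 0.85 for BG081903, Star of 0.37 ± 0.42 and Cyp17a1 of 0.03 ± 0.68 (SE, log2). Cyp17a1 had n = 2 arrays of day 4 and 3 of day 2, and the others n = 3 of each. All 4 had an adjusted p of 1.00 in limma. Among all clones 0% passed at an adjusted p under 0.05 and 2.64% at an unadjusted p under 0.05, with 0 of these 4 in both counts. The 3 day 4 arrays lay apart from the 3 day 2 arrays in 6.87% of clones with 6 values and in 0 of the 3 such clones of Star and Hsd3b1.

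With day 2 array 1 turned, day 4 minus day 2 was 0.51 for Star, 0.87 for Cyp17a1, 0.14 for BG080926 and −0.12 for BG081903. With array 2 turned it was 0.34 for Star, −0.62 for Cyp17a1, 1.39 for BG080926 and 1.87 for BG081903. Arrays of the 2 ages then lay apart in 15.3% of all clones with array 1 turned, with 0 of these 3 among them, and in 15.7% with array 2 turned, with 2 of these 3 among them. Those 2 were the Hsd3b1 clones. No clone of the 3 genes passed the limma test with either array turned. At an unadjusted p under 0.05 there were 0 of these 4 with array 1 turned, against 11.4% of all clones. With array 2 turned there were 2 of these 4, against 8.86% of all clones: BG080926 and BG081903, both with an adjusted p of 0.543. Without day 2 array 2 the differences were 1.26 for BG080926 (adjusted p 0.832) and 1.58 for BG081903 (adjusted p 0.739), both under 0.05 unadjusted, with 5.47% of all clones.

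**Figure D2:**
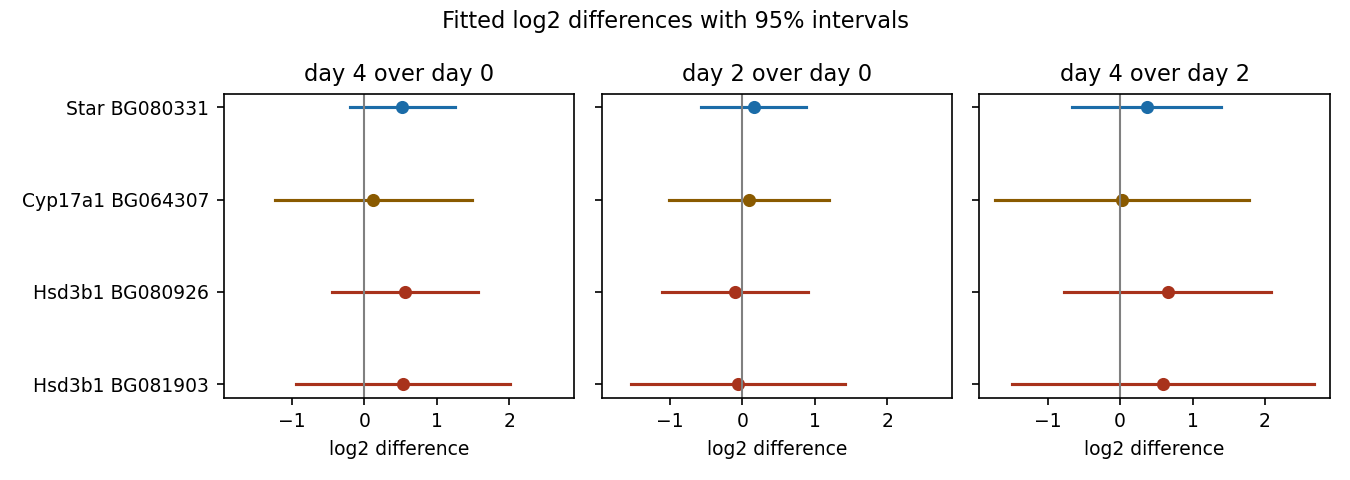
Fitted log2 difference (horizontal axis, points) with its 95% interval (lines) for the 4 clones in day 4 over day 0, day 2 over day 0 and day 4 over day 2. The day 2 signs are as deposited. Every interval includes 0, and the widest reach is in day 4 over day 2, down to −1.72 for Cyp17a1 and up to 2.67 for BG081903.

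Array 3 of both ages was hybridised against the same day 0 RNA, so the difference between those arrays leaves out the spread of day 0. There Star was 1.45 at day 4 and 0.29 at day 2, a difference of 1.16 or 2.23-fold, above 98.8% of the 5630 clones measured on both arrays. Hsd3b1 was −0.14 at day 4 and −0.63 at day 2 for BG080926, a difference of 0.50. It was −0.08 at day 4 and −1.02 at day 2 for BG081903, a difference of 0.93. These differences were above 92.5% and 98.0% of clones. The day 4 value of BG081903 came from repeats between −0.52 and 0.51. A pair of its repeats on day 2 array 3 carries the authors' mark for repeats. Over all clones the difference had a median of 0.00 and an SD of 0.39. This is 1 pair of arrays, with no replicate and no test.

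The pathway was described through 5 lists with 143 genes in all, of which 41 were measured on the array and tested. Star, Cyp17a1 and Hsd3b1 are among the 41 and are included in the counts and medians. At day 4 against day 0, 0 of the 41 passed at an adjusted p under 0.05. An unadjusted p under 0.05 was seen in 6 of the 41 (14.6%), against 9.29% of all clones. Of the 41, 23 were above 0, and their median was 0.04, against −0.00 over all clones. In day 2 over day 0, 0 passed and 2 (4.88%) had an unadjusted p under 0.05, against 2.84% of all clones. In day 4 over day 2, 0 passed and 0 had an unadjusted p under 0.05, against 2.64% of all clones. With day 2 array 1 turned, 0 passed in either, and 11 had an unadjusted p under 0.05 in day 2 over day 0 and 7 in day 4 over day 2. The shares of all clones were then 23.2% and 11.4%. With array 2 turned, 0 passed in either, and the counts were 11 and 4, against 13.8% and 8.86% of all clones. The values below are log2 means ± SE at day 4 over day 0, with limma's adjusted p.

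Cholesterol uptake and transport had 11 of 30 listed genes measured, 6 above 0 and 5 below, with a median of 0.04 and 0 past the test. Npc2, which carries cholesterol out of the lysosome, had the smallest p at −0.64 ± 0.17 (n = 3, adjusted p 0.274). It was −0.59, −0.65 and −0.68 on day 4 arrays 1, 2 and 3, against −0.59, 0.24 and −0.37 on day 2 arrays 1, 2 and 3. The 3 day 4 arrays of Npc2 were close to each other, and day 2 array 1 was level with them. Stard5, a cholesterol-binding relative of Star, was −0.39 ± 0.14 (n = 2, adjusted p 0.483). Soat2, which esterifies cholesterol, was 0.50 ± 0.25 (n = 3, adjusted p 0.630). Star itself was the fourth by p.

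Cholesterol synthesis had 9 of 22 genes measured, 5 above 0 and 4 below, with a median of 0.06 and 0 past the test. Fdft1, squalene synthase, was 0.61 ± 0.33 (n = 3, adjusted p 0.662) and was above 0 on all 3 day 4 arrays, at 0.57, 0.32 and 0.94. The same sign on all 3 was seen in 44.3% of all clones with values on them. On day 2 arrays 1, 2 and 3 Fdft1 was −0.70, 1.09 and −0.02. Ggps1, which makes geranylgeranyl diphosphate, was 0.32 ± 0.31. Dhcr7, which completes cholesterol from its last precursor, was −0.39 ± 0.48.

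Steroidogenic enzymes and their redox partners had 6 of 29 genes measured, 5 above 0 and 1 below, with a median of 0.15 and 0 past the test. Cyp17a1 and Hsd3b1 are 2 of the 6, with BG081903, the brighter clone on average, standing for Hsd3b1. Cyb5a, cytochrome b5, which aids the lyase step of Cyp17a1, was 0.47 ± 0.40 (n = 3, adjusted p 0.783). It was 0.48, 0.53 and 0.39 on day 4 arrays 1, 2 and 3, against 1.39, −0.90 and −0.17 on day 2 arrays 1, 2 and 3. Cyb5a thus had the signs of Cyp17a1 on day 2 arrays 1 and 2, which oppose each other over all clones, and little spread at day 4. The share of clones with these signs was not counted. Cyb5b, the form in the outer mitochondrial membrane, was 0.17 ± 0.14. Hsd17b4, an enzyme of peroxisomal beta-oxidation, was −0.34 ± 0.32.

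Regulators of steroid synthesis had 9 of 38 genes measured, 6 above 0 and 3 below, with a median of 0.10 and 0 past the test. Dhh, the hedgehog ligand of granulosa cells that acts on theca precursors, was 0.42 ± 0.11 (n = 3, adjusted p 0.261). It was 0.31, 0.53 and 0.41 on day 4 arrays 1, 2 and 3, against 0.12, 0.16 and −0.07 on day 2 arrays 1, 2 and 3. The day 4 values of Dhh all lay above the day 2 values, as was so in 6.87% of all clones with 6 values, in either direction. Turning day 2 array 1 or 2 keeps them apart, against 15.3% and 15.7% of all clones. Nr5a2, a nuclear receptor of granulosa cells, was 0.33 ± 0.13 (n = 3, adjusted p 0.528), and a second clone of it was 0.09.

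Gata6, a GATA factor of ovarian somatic cells, was −0.72 ± 0.23 for its brightest clone (n = 3, adjusted p 0.401), and its other clones were −0.65 and 0.05. Insig1, which holds back the cholesterol-sensing factors, was 0.29 ± 0.18. Nr5a1, the receptor SF-1 to whose site the letters TCAAGG belong, was −0.07 ± 0.42. It was −0.13, −0.52 and 0.43 on day 4 arrays 1, 2 and 3, against −0.85, 1.37 and −0.27 on day 2 arrays 1, 2 and 3. Nr5a1 had the signs of Hsd3b1 on the day 2 arrays, and the opposite signs on the day 4 arrays. Day 2 arrays 1 and 2 oppose each other over all clones, and the share of clones with these signs was not counted. It was named for its site and not by p.

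Steroid receptors and steroid metabolism had 6 of 24 genes measured, 1 above 0 and 5 below, with a median of −0.11 and 0 past the test. Cyp7b1, which hydroxylates oxysterols and steroids, had the smallest p at −0.81 ± 0.25 (n = 3, adjusted p 0.362). It was −1.17, −0.14 and −1.11 on day 4 arrays 1, 2 and 3, so array 2 was less low than the others. Fkbp4, a co-chaperone of steroid receptors, was −0.78 ± 0.56 for its brightest clone (n = 2, adjusted p 0.755), and its other clones were −0.41 and 0.01. Ncoa2, a receptor coactivator, was 0.15 ± 0.15, and Ncor1, a corepressor, was −0.09 ± 0.15.

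**Figure D3:**
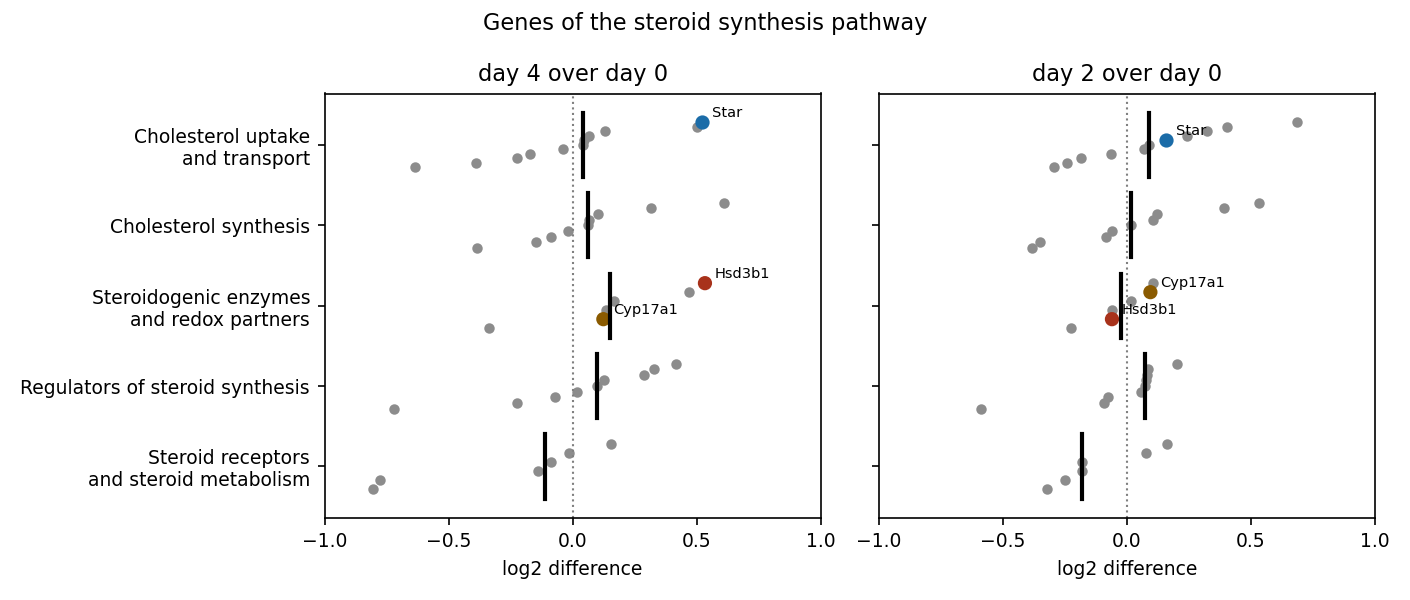
Log2 difference (horizontal axis) of the 41 measured pathway genes in 5 lists (down the page), day 4 over day 0 on the left and day 2 over day 0 on the right. Each point is a gene, black bars are list medians, and Star, Cyp17a1 and Hsd3b1 are coloured and named, with the day 2 signs as deposited. In day 4 over day 0 the medians run from −0.11 to 0.15, and Star and Hsd3b1 lie at the upper end of their lists.

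The clones with the most similar pattern were found by Pearson correlation of the log2 ratios over the arrays, among named clones whose SD was within a factor of 2 of the clone's own. They are a description, since the clones share the arrays. Star was most like myeloblastosis oncogene-like 1 (r = 0.94 over 6 arrays, 1173 candidates), a chromatin regulator of the SWI/SNF family (subfamily e, member 1, r = 0.93), immediate early response 3 (r = 0.93) and Insig1 (r = 0.93). Of these 4, 2 were still among the 4 nearest with day 2 array 1 turned and 1 with array 2 turned. In each of these 4 clones, too, day 4 array 3 was the highest of the 6 arrays. That follows from how they were picked, since this array sets most of Star's spread.

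Clone BG080926 of Hsd3b1 was most like spindlin (r = 0.97), cullin 1 (r = 0.96), the high density lipoprotein binding protein (r = 0.95) and glutamyl-prolyl-tRNA synthetase (r = 0.94), among 759 candidates. Clone BG081903 was most like the high density lipoprotein binding protein (r = 0.96), a serine proteinase inhibitor (clade E, member 2, r = 0.96), dystroglycan 1 (r = 0.95) and eukaryotic translation initiation factor 4A1 (r = 0.94), among 384 candidates. The 2 Hsd3b1 clones thus shared 1 of their 4 nearest. With day 2 array 1 turned, 0 of the 4 nearest of BG080926 and 1 of those of BG081903 remained, and with array 2 turned 1 and 0. Over its 5 arrays, Cyp17a1 had r above 0.9 with 293 of 1090 candidates, so its nearest say little. Among them were ariadne homolog 2, tumor rejection antigen P1A and a proteasome subunit (alpha type 7), each with r = 1.00.

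Markers of the cell types an ovary sample can hold were read beside the genes. Ratios do not show whether a cell type is present, only how its markers differed from day 0. The theca list had 4 of 9 markers measured, of which 3 are the genes described here. Granulosa markers (2 of 13, Nr5a2 and Dhh) had medians of 0.38, 0.52 and 0.21 on day 4 arrays 1, 2 and 3. Oocyte markers (4 of 13) had medians of 1.46, 2.02 and 1.75 on day 4 arrays 1, 2 and 3, against −0.11, 0.60 and 0.68 on day 2 arrays 1, 2 and 3. Of the 3 clones of the oocyte marker Gdf9, only the brightest enters these medians. It was −0.45 on day 2 array 1, where its other clones were 0.64 and 0.03. Oocyte markers were high on all 3 day 4 arrays, while Star was high on array 3 and Hsd3b1 on arrays 1 and 2.

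Blood markers (5 of 8) had medians of −1.28, −0.72 and −1.12 on day 4 arrays 1, 2 and 3, against −0.24, 1.29 and −0.26 on day 2 arrays 1, 2 and 3. Only 4 of them had a value on day 4 array 1 and 3 on day 4 array 3. Smooth muscle markers (5 of 7, with 4 on day 4 array 3) had medians of 0.72, 0.25 and 0.45 on day 4 arrays 1, 2 and 3, against −0.24, 0.84 and 0.29 on day 2 arrays 1, 2 and 3. As deposited, the medians of blood and smooth muscle markers were highest on day 2 array 2, where both Hsd3b1 clones were too. Of the smooth muscle markers only Cnn1 and Cnn2 were highest there. Tpm2 was −0.53 there, its lowest value. Tpm1 was 0.38 there against 0.77 on day 4 array 2, and Mylk was 0.84 against 1.19 on day 4 array 1. Endothelial markers (4 of 6) had medians of −0.54, −0.16 and −0.71 on day 4 arrays 1, 2 and 3, against −0.06, −0.53 and −0.46 on day 2 arrays 1, 2 and 3. The median on day 4 array 3 rests on 2 markers, Pecam1 and Emcn. The part of these cell types in the values of the 3 genes was not tested. Of 5 markers of the adrenal cortex, a tissue that also makes steroids, 0 were measured, so tissue of that kind could not be checked.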

How the data were processed

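The authors deposited log2 ratios (later day in Cy5 over day 0 in Cy3, per the file headers) for 4 repeats per clone and array, with their mean, a mean log2 intensity, an SD between repeats and marks whose meaning the headers do not define. R 1.7.1 is named in the submitters' processing notes. How background was corrected and values normalized is not given in these sources. The medians of the arrays lay between −0.00 and 0.02. The deposited value table equalled the mean of the repeats within 0.0075 on 6 of 6 arrays and served as an alternative.

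The repeats were averaged with no further normalization. Clones with values on at least 2 arrays of each age (8135 of 8272, with all 4 clones of Star, Cyp17a1 and Hsd3b1) entered the test, run with limma (3.58.1) under R (version 4.3.3). The fit had 1 mean per age over all 6 arrays and moderated variances, and tests were 2-sided with Benjamini-Hochberg adjustment over all clones tested and a threshold of 0.05. An SE comes from this fit, whose precision the number of arrays limits. The code was tested on simulated data.

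The genes, lists and tests were chosen with earlier results of these data known. Pathway genes were named by the 4 smallest p-values of each list at day 4 over day 0, by the brightest clone, and the nearest patterns by the 4 highest correlations. Clone names were matched to symbols by hand, and all 41 measured pathway genes are in the mouse gene table, which was used for names only. These rules also name 2 genes that are not reported here, whatever their values.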

Additional observations from a re-analysis of the deposited data

How the results depend on the processing

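No alternative brought a clone of Star, Cyp17a1 or Hsd3b1 past the test, with adjusted p between 0.189 and 1.00 over 239 values, and 22 of these had the other sign, 0 at day 4 over day 0, 13 at day 2 over day 0 and 9 at day 4 over day 2. At day 2 over day 0 the sign turned without values that carry the authors' marks (Cyp17a1 −0.49, BG081903 0.42), with day 2 array 1 turned (Cyp17a1 −0.75, BG080926 0.42, BG081903 0.66), without array 3 of both ages (BG080926 0.17, BG081903 0.42) and, chosen after seeing the data, without day 2 arrays 1 and 2 (Cyp17a1 −0.0059). At day 4 over day 2 it turned for Cyp17a1 with scale normalization (−0.13), when array 2 of day 2 was turned (−0.62) and without array 3 of both ages (−0.022), for Star without array 3 of both ages (−0.030) and for BG081903 with day 2 array 1 turned (−0.12). The cause was not tested. Leaving out 1 array at a time gave, at day 4 over day 0, 0.06 to 0.87 for Star, 0.33 to 0.90 for BG080926 and 0.36 to 0.84 for BG081903. At day 2 over day 0 it gave −0.49 to 0.63 for Cyp17a1, −0.70 to 0.24 for BG080926 and −1.05 to 0.45 for BG081903, and at day 4 over day 2, −0.10 to 0.71 for Star and −0.51 to 0.61 for Cyp17a1. The array numbers are shared by both ages, but same-numbered arrays deviated together in only 2 of 3 pairs (r = 0.37, 0.05 and 0.51), and day 2 array 2 deviated most like day 4 array 3 (r = 0.08), so they were not taken as pairs. Array 3 of both ages shares its day 0 RNA. With the replicate block, Cyp17a1 was −0.022 at day 4 over day 2, and 21 clones passed at day 4 over day 0. That count, 39 as reported, was 96 with scale normalization, 125 with a variance trend, 126 with a trend and robust fit, 0 with array 2 of day 2 turned, 0 when array 3 was left out at both ages, 166 without day 2 arrays 1 and 2 and 166 with the day 4 arrays alone. Leaving out 1 array at a time it ran from 0, without any of the day 4 arrays, to 71. At day 4 over day 2 the count of 0 became 1 with a variance trend and 1 with a trend and robust fit. Cyp17a1 had too few values for a fit on complete clones or without day 4 array 1 or 2, and a fit on the ages compared alone is the reported one at day 4 over day 2. For arrays the repeat spots and the number of arrays set the precision.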
